A study of Sus scrofa with 43 samples.

Results

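The interferon-stimulated genes MX1, MX2, ISG15, OAS1, OAS2, OASL, RSAD2, EIF2AK2 and IRF7 were followed in the jejunum of suckling and weaned pigs. Members were the array probes whose accession, with the version number dropped, is a pig RefSeq transcript of one of these 9 symbols. Of the 9 genes, 8 had a probe (17 probes in all), and OAS1 had none under that rule. The 8 measured genes were among 35884 accessions on the array, and all 8 were among the 12771 that passed a filter on low signal.

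Jejunal scrapings of 43 male piglets were hybridised to one-colour Agilent arrays, 1 piglet per array. The dams were Hypor gilts and sows from 3 batches, and the labels do not tie a piglet to a batch. Control dams received standard feed, whereas amoxicillin dams received 15 mg amoxicillin per kg body weight daily in the feed from a week before the expected farrowing until farrowing. Control piglets numbered 6 at 1 d of age, 6 at 7 d, 3 at weaning, 5 at 4 d postweaning and 3 at 4 wk postweaning, and piglets from amoxicillin-treated sows numbered 4 at each of these 5 ages. One apparently healthy piglet was taken per sow and age, so each age shows other animals. Control day 1 held arrays labelled 19 and 19B. The labels do not say how these relate, so the 43 and the 6 at that age are strictly counts of arrays.

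Interferons are secreted proteins that cells release on sensing viral or microbial nucleic acid. They bind receptors on neighbouring cells, and transcription factors, STAT2 and IRF9 among them, then switch on a shared set of genes whose products hinder viral replication. The gut epithelium is known to respond to interferons, and several of these genes are used as a readout of interferon signalling in tissue. Among the members, IRF7 is the transcription factor that amplifies interferon production, ISG15 is a ubiquitin-like modifier, MX1 and MX2 are dynamin-like GTPases, OAS2 makes short oligoadenylates as antiviral signals on sensing double-stranded RNA, OASL is a related protein that acts in RNA sensing, RSAD2 is the radical-SAM enzyme viperin, and EIF2AK2 is the RNA-activated kinase PKR, which blocks translation.

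Levels are given as normalized log2 intensity after background correction and quantile normalization, so a difference of 1 is a doubling of signal. They are comparable between arrays for a gene, not between genes. The arrays lay on 6 slides, of which slides 1 to 3 held only control piglets and slides 4 to 6 only piglets from amoxicillin-treated sows, so treatment and slide cannot be told apart. Gene spots called well above background numbered 15937 to 29827 per control array and 16150 to 26290 per amoxicillin array, of 43803. No member spot was flagged. The scanner's upper limit truncated 1 gene in particular: the ISG15 spot was saturated on 22 of 43 arrays, including every array of the control weaning, control 4 d, amoxicillin 4 d and amoxicillin 4 wk groups, whereas OASL was saturated on 2 arrays and IRF7 on 3. The enterocyte genes FABP1, FABP2, ANPEP, APOA1 and APOA4 were well above background on all 43 arrays. Their mean log2 intensity was 15.52 to 15.89 at each age, near the scanner's upper limit, so a change between ages could not be read from them.

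**Figure D1:**
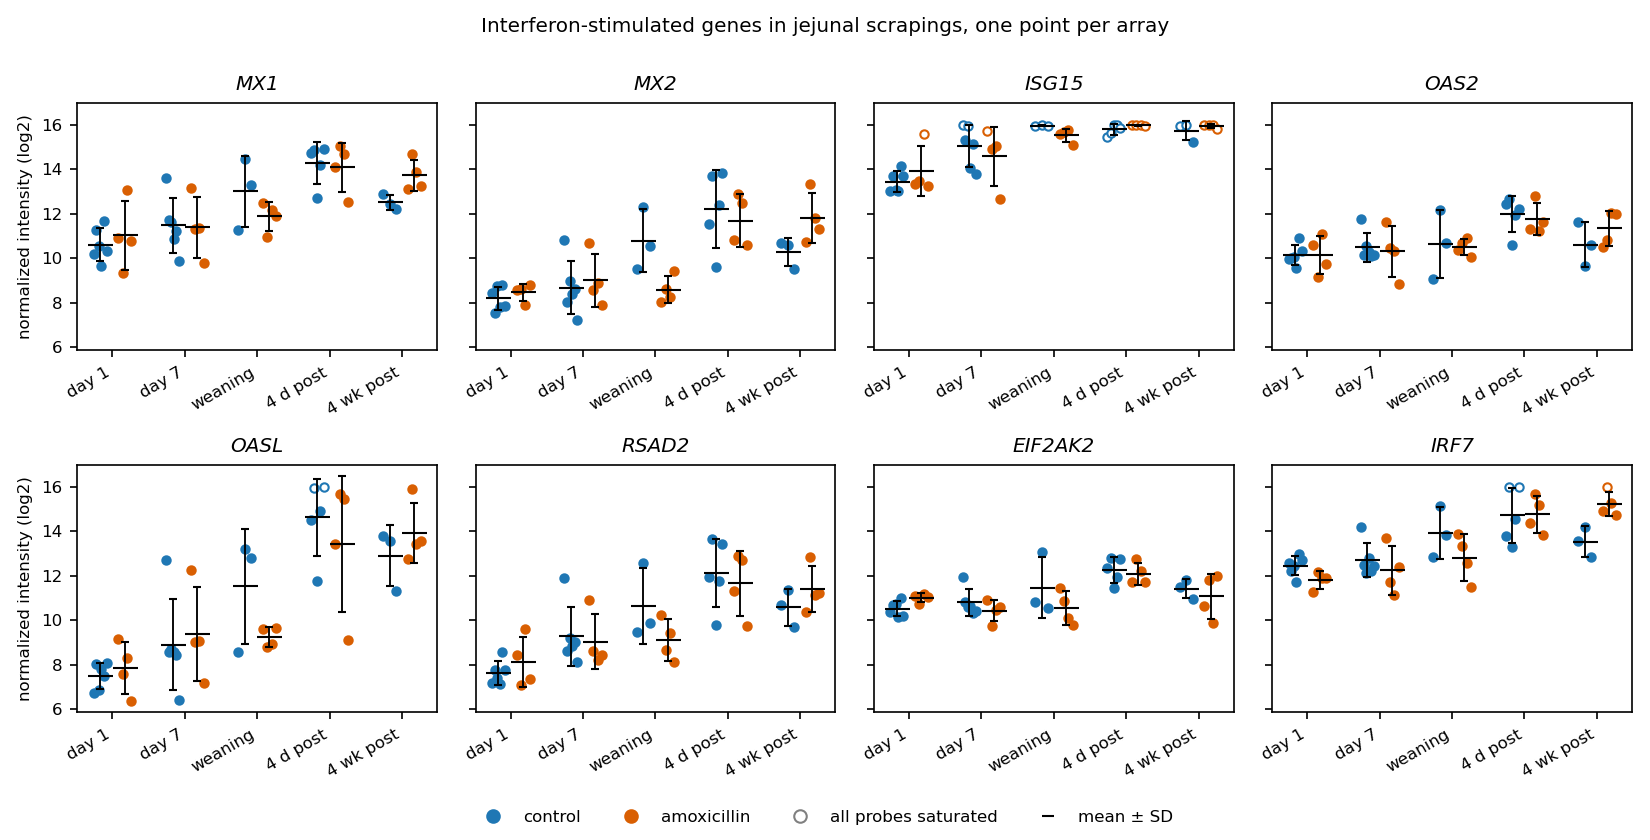
Normalized intensity (log2) of the 8 genes by age in control piglets and piglets from amoxicillin-treated sows, with 1 point per array, bars for group mean ± SD, and open points where all probes of the gene were saturated. OASL climbs from a control mean of 7.51 at day 1, under the low-signal cut of 7.68, to 14.63 at 4 d postweaning. ISG15 reaches the scanner limit by weaning.

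The members were low at birth and high after weaning in both arms. Control means were lowest at day 1 for 8 of 8 genes and highest at 4 d postweaning for 7 of 8. Means of piglets from amoxicillin-treated sows were lowest at day 1 for 7 of 8 genes, the exception being EIF2AK2, and highest at 4 d postweaning for 5 of 8 and at 4 wk for MX2, OASL and IRF7. The plot of the 8 genes by age shows both courses. By limma's F-test with Benjamini-Hochberg adjustment over all 12771 genes, levels differed between ages for 8 of 8 members within control piglets, against 30.5% of all genes tested, and for 7 of 8 within the amoxicillin arm, against 47.0% of all genes. Adjusted p ran from 5.5e-06 for OASL to 0.030 for OAS2 in control piglets, and OAS2 was the gene that missed in the amoxicillin arm (adjusted p = 0.055). The control call of OAS2 was lost without day 1 piglet 19 or any of 4 d piglets 10, 29, 31 and 32, without the low-signal filter, and with slide as a random block (adjusted p = 0.096). Ages and slides largely coincide, and with slide as a fixed block 0 of 8 members were called in control piglets and 4 of 8 in the amoxicillin arm.

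The step from weaning to 4 d postweaning held most of the calls among neighbouring ages. Averaged over both arms, 7 of 8 members rose and none fell, against 13.7% of all genes called in either direction and 6.19% called higher, and the members' median difference was 1.56 on the log2 scale against -0.03 over all genes. OASL rose most, by 12.4-fold. The next were MX2 by 4.81-fold and RSAD2 by 4.05-fold. In scrapings, a larger share of responding cells and more transcript per cell cannot be told apart.

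Among the oligoadenylate synthetase family, OASL in control piglets stood at 8.57, 12.81 and 13.23 at weaning and at 11.78, 14.51, 14.91, 15.95 and 16.00 at 4 d postweaning, the last 2 saturated. In piglets from amoxicillin-treated sows it stood at 8.82, 8.96, 9.60 and 9.67 at weaning and at 9.12, 13.44, 15.48 and 15.70 at 4 d. The low value of 9.12 belonged to piglet 34, so the amoxicillin groups overlapped through a single animal, and the control groups overlapped through piglet 30 at 11.78. OASL differed by 3.63 (log2, SE 0.85, adjusted p = 0.0047). OAS2 moved less. Its control values were 9.08, 10.67 and 12.15 at weaning against 10.61, 11.96, 12.21, 12.43 and 12.65 at 4 d, and its amoxicillin values were 10.05, 10.38, 10.67 and 10.92 against 11.24, 11.32, 11.65 and 12.80. The control values overlapped and the amoxicillin values did not, and OAS2 rose by 1.29 (SE 0.40, adjusted p = 0.028). One of its 5 probes was saturated on 13 arrays; the other 4 probes gave 1.43 (SE 0.43, adjusted p = 0.025).

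The MX GTPases rose together. MX2, whose spot never saturated, read 9.52, 10.54 and 12.31 in control piglets at weaning and 9.59, 11.55, 12.39, 13.69 and 13.82 at 4 d. In the amoxicillin arm it read 8.04, 8.25, 8.60 and 9.43 at weaning and 10.57, 10.80, 12.50 and 12.90 at 4 d. The amoxicillin groups were separated by more than 1 log2 unit, while control piglet 30 at 4 d lay among the weaning values. MX2 rose by 2.27 (SE 0.53, adjusted p = 0.0046). MX1 read 11.26, 13.31 and 14.44 in control piglets at weaning against 12.69, 14.21, 14.74, 14.87 and 14.91 at 4 d, and 10.97, 11.91, 12.15 and 12.51 against 12.53, 14.09, 14.71 and 15.04 in the amoxicillin arm. It rose by 1.74 (SE 0.52, adjusted p = 0.024), or by 2.12 (SE 0.57, adjusted p = 0.012) over the 2 of its 5 probes that never saturated. Probes of 1 gene agreed in direction but not in size: their differences ran from 1.06 to 2.47 over the 5 MX1 probes, from 0.64 to 2.34 over the 5 OAS2 probes and from 1.74 to 2.29 over the 2 RSAD2 probes. Whether probes for MX1 and MX2 bind each other's transcript was not tested.

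RSAD2 read 9.46, 9.87 and 12.60 at weaning and 9.81, 11.79, 11.95, 13.42 and 13.66 at 4 d in control piglets, and 8.11, 8.67, 9.44 and 10.25 against 9.77, 11.30, 12.72 and 12.91 in the amoxicillin arm. Groups overlapped in both arms, and RSAD2 rose by 2.02 (SE 0.58, adjusted p = 0.019). EIF2AK2 kept a narrower range, with 10.53, 10.82 and 13.06 against 11.45, 11.94, 12.37, 12.77 and 12.80 in control piglets. In the amoxicillin arm it read 9.79, 10.08, 10.87 and 11.45 against 11.71, 11.74, 12.21 and 12.77, with no overlap. It rose by 1.17 (SE 0.32, adjusted p = 0.014).

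IRF7 read 12.83, 13.83 and 15.16 at weaning and 13.30, 13.81, 14.55, 15.99 and 16.00 at 4 d in control piglets, and 11.48, 12.56, 13.36 and 13.89 against 13.82, 14.38, 15.20 and 15.70 in the amoxicillin arm. The groups overlapped in both arms, and IRF7 rose by 1.37 (SE 0.42, adjusted p = 0.025). ISG15 was the member that did not pass (0.15, SE 0.34, adjusted p = 0.80), with its control spots saturated at both ages. In the amoxicillin arm, where ISG15 was unsaturated at weaning (15.08, 15.57, 15.66 and 15.79), the saturated 4 d group read 1.38-fold higher. Saturated spots read as low as 15.47 (control 4 d piglet 10), under some unsaturated values, so this fold is not a bound.

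The step was tested over both arms together, and the arms' own values were as follows. In the amoxicillin arm, 5 of 8 members (MX1, MX2, ISG15, OAS2 and EIF2AK2) did not overlap between weaning and 4 d, against 5.93% of all genes, whereas 0 of 8 did not overlap in control piglets, against 11.8% of all genes. ISG15 was saturated on every amoxicillin 4 d array, so its separation rests on truncated values. The mean difference was larger in the amoxicillin arm for OASL (4.17 against 3.09), MX2 (3.11 against 1.42), RSAD2 (2.56 against 1.48), MX1 (2.21 against 1.28), IRF7 (1.95 against 0.79) and EIF2AK2 (1.56 against 0.79), and not for OAS2 (1.25 against 1.34). ISG15, saturated in both control groups, gave 0.46 against -0.16. The difference between arms is a contrast that is part of the test between arms and ages given with the treatment results. Slide 5 held 4 amoxicillin arrays at weaning and 3 at 4 d, and within it 8 of 8 members were higher at 4 d, by 0.47 to 5.61 (median 2.50). Slide 2 held 3 control arrays at weaning and 1 at 4 d, and within it 6 of 8 were higher (range -0.50 to 2.98).

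The count of 7 depended on which piglets were included and on the processing. OAS2 and IRF7 lost their call with the processed signal and without the low-signal filter. IRF7 also lost it with slide as a random block. Without control weaning piglet 24, the lowest of its group, 2 members remained called (MX2 and OASL). Without amoxicillin 4 d piglet 32, 4 remained. MX2 and OASL kept their call with each of the 16 arrays left out in turn, whereas RSAD2 lost it once, MX1 and EIF2AK2 lost it for 2 arrays each, OAS2 for 3 and IRF7 for 5. With slide as a fixed block, 1 member (OASL) was called, MX1 then differing by 2.23 with an adjusted p of 0.067.

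The steps before weaning were smaller. From day 1 to day 7, 1 of 8 members was called, against 3.13% of all genes called in either direction and 2.01% called higher: ISG15, by 2.21-fold (log2 1.14, SE 0.30, adjusted p = 0.026). Control ISG15 ranged from 13.01 to 14.13 (median 13.38) at day 1 and from 13.80 to 16.00 (median 15.23) at day 7. The amoxicillin values were 13.25, 13.35, 13.49 and 15.61 against 12.67, 14.91, 15.05 and 15.74. The ranges overlapped in both arms, with amoxicillin day 1 piglet 2 among the day 7 values. The ISG15 spot was saturated on that array and on 3 of the day 7 arrays (control piglets 19 and 21, amoxicillin piglet 20), so the fold is that of truncated values. The call was lost without each of 7 single arrays (control day 7 piglet 21, amoxicillin day 1 piglets 17, 18 and 21, and amoxicillin day 7 piglets 20, 21 and 24) and with slide as a random block (adjusted p = 0.054). OASL (1.46, adjusted p = 0.41) and RSAD2 (1.28, adjusted p = 0.22) had the largest mean differences among the rest without passing. From day 7 to weaning 0 of 8 members were called, against 11.5% of all genes, and 2 had an unadjusted p under 0.05. All 8 differences were positive, and ISG15 came nearest (0.92, adjusted p = 0.064).

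After 4 d postweaning the members no longer climbed. From 4 d to 4 wk 0 of 8 were called, against 5.43% of all genes, with 3 at an unadjusted p under 0.05 and EIF2AK2 nearest (-0.93, adjusted p = 0.078). All 8 mean differences over both arms were negative (median -0.89), and the arms differed in their values. In control piglets MX2 had a difference of -1.93, MX1 of -1.77 and OASL of -1.73, and within slide 3, with 4 control arrays at 4 d and 3 at 4 wk, 0 of 8 were positive (median -1.51). In the amoxicillin arm the differences ran from -1.01 for EIF2AK2 to 0.49 for OASL, and within slide 6, with 1 array at 4 d and 4 at 4 wk, 5 of 8 were positive (median 1.21).

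A pair of longer contrasts, chosen after the data had been seen, placed the 4 wk level against the earlier ages. From day 1 to 4 wk postweaning 6 of 8 members were higher, against 43.0% of all genes called in either direction and 19.1% called higher: OASL by 5.73 (SE 0.84, adjusted p = 9.2e-07), RSAD2 by 3.11, MX2 by 2.72, MX1 by 2.30, IRF7 by 2.25 and ISG15 by 2.16. OAS2 (0.84, adjusted p = 0.085) and EIF2AK2 (0.48, adjusted p = 0.22) did not pass. At day 1, OASL read as low as 6.75 in control piglets and 6.38 in the amoxicillin arm, under the low-signal cut of 7.68. RSAD2 read as low as 7.13 and 7.09. The sizes of these differences therefore start from low signal. OASL passed the filter only through groups at weaning or later. For ISG15 the saturated control weaning group read 5.76-fold above the control day 1 group, a fold of truncated values. From weaning to 4 wk 1 of 8 was called, against 26.9% of all genes: OASL, by 3.01 (SE 0.90, adjusted p = 0.012), a call lost without control weaning piglet 24. Without control weaning piglet 25, 3 were called (MX2 and IRF7 added).

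Other genes of the interferon pathway were counted from a list of 111 symbols beside the members, of which 53 had a probe and 40 passed the filter. From weaning to 4 d, 21 of the 40 rose and 0 fell, with a median difference of 0.71. Of all genes, 13.7% were called in either direction and 6.19% were called higher at this step. Of 7 signalling genes 4 rose, among them USP18, which limits receptor signalling, by 1.54, STAT2 by 0.63 and IRF9 by 0.54. Among 6 nucleic-acid sensors DHX58 rose by 1.53 and IFIH1 by 0.87, among 5 receptors IFNGR1 rose, and among 3 further transcription factors IRF1 rose by 1.02. Of 18 other interferon-stimulated genes 13 rose, led by the T-cell-attracting chemokines CXCL10 (3.15, SE 0.56, adjusted p = 5.3e-04), CXCL9 (3.13) and CXCL11 (2.85), followed by the GTPase GBP2 (2.09), IFIT3 (1.93) and IFIT1 (1.90). At the other steps fewer of the 40 were called. From day 1 to day 7, 3 of 40 rose, IFIT1 (1.99) and CXCL9 (1.95) among them, against 3.13% of all genes called. From day 7 to weaning 2 of 40 were called, against 11.5% of all genes (PSMB8, higher by 0.87, and IFI30, which fell by 0.83), and from 4 d to 4 wk 2 of 40, against 5.43% (CXCL11, which fell by 2.00, and IFI44, which fell by 1.40).

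Genes with a pattern most like the members were taken as those whose deviations from the group means correlated best with the members' mean deviation over the 43 arrays, among 1850 complete genes with a symbol. Among the 10 taken were USP18 (r = 0.92), DHX58 (0.92), IFI44 (0.86), IFIT1 (0.85), IFIT3 (0.81), BST2 (0.74), LGALS9 (0.71), IFIH1 (0.63) and CAST (0.61). The median r over all 12475 complete genes tested, with or without a symbol and members included, was 0.0087, with quartiles of -0.11 and 0.12. The next gene with a symbol was PSMA5 (0.58). The points share arrays, slides and labelling, and the values are a description. Of these 10, 9 also rose from weaning to 4 d, against 6.19% of all genes called higher. The exception was CAST (0.60, adjusted p = 0.18).

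The 21 pathway genes that rose after weaning did not all track the members from piglet to piglet. Of the 21, 10 had an r above 0.5 with the members within groups and 6 had an r under 0.1. These 6 were CXCL9 (0.09), PSMB8 (0.05), IFNGR1 (0.04), GBP2 (-0.06), PSMB9 (-0.26) and IRF1 (-0.28), a chemokine, inducible proteasome subunits, a receptor chain, a GTPase and a transcription factor. CXCL10 (0.45) and CXCL11 (0.53), chemokines of the same family as CXCL9, lay between these and USP18 and DHX58 (both 0.92).

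**Figure D2:**
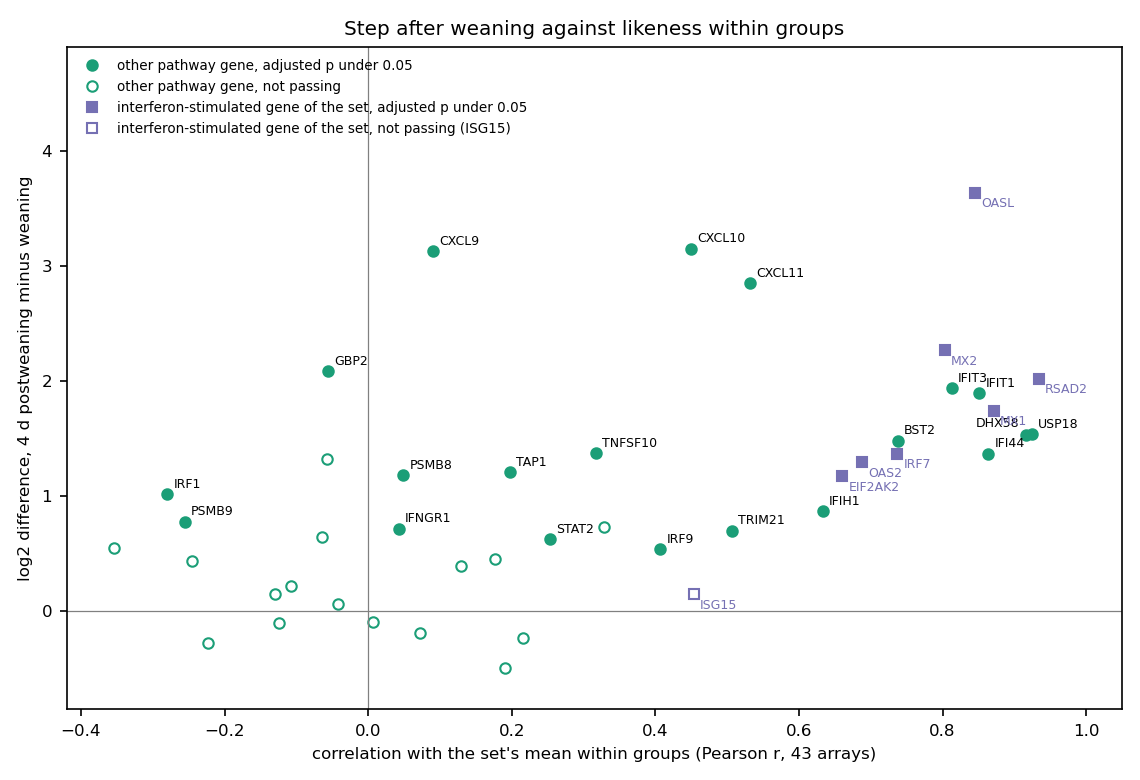
Log2 difference from weaning to 4 d postweaning (vertical axis) against Pearson r with the members' mean deviation within groups over 43 arrays (horizontal axis) for pathway genes (circles) and the members (squares, r with the mean of the other members; some pathway genes are not drawn), filled where the adjusted p was under 0.05. USP18 and DHX58 sit with the members at r = 0.92, whereas CXCL9 and GBP2 rose by 3.13 and 2.09 at r near 0.

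Among the interferons themselves, IFNA1 and IFNB1 were near background on most arrays. Probes existed for 5 of 11 listed ligands, and only IFNE, well above background on 40 of 43 arrays, passed the filter, so the others were not tested between groups. IFNA1 was well above background on 3 of 43 arrays: control 4 d piglet 32 (8.30), control 4 d piglet 29 (7.36) and amoxicillin 4 d piglet 32 (7.14), while its highest value on the other arrays was 5.75. These were the 3 arrays with the highest member level. IFNB1 was well above background on control 4 d piglet 32 (6.32), amoxicillin 4 d piglet 32 (6.25) and control 4 d piglet 10 (6.08). IFNG, the type II interferon, was well above background on 28 of 43 arrays, and IFN-DELTA-1 on 26. Over the 5 ages in order, IFNG group means were 5.89, 5.95, 6.32, 7.27 and 8.32 in control piglets and 5.83, 6.07, 6.45, 8.05 and 7.41 in the amoxicillin arm. In that order it was well above background on 6 of 6, 4 of 6, 2 of 3, 5 of 5 and 3 of 3 control arrays. In the amoxicillin arm it was so on 1, 2, 1, 3 and 1 of 4 arrays. IFNG values not well above background reached 7.45, so these means include arrays near background. IFNA1 and IFNB1 may have relatives whose transcripts the same probes bind, which was not tested.

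Leukocyte markers rose over part of the same period. The mean log2 intensity over 11 leukocyte genes of 18 listed (PTPRC had no probe) averaged 6.99 at day 1 (6.51 to 7.52), 7.64 at day 7 (7.02 to 8.13), 8.33 at weaning (7.59 to 9.17), 8.67 at 4 d (8.12 to 9.74) and 8.59 at 4 wk (8.02 to 9.20). Of the 9 leukocyte markers that passed the filter, 6 rose from day 1 to day 7, against 2.01% of all genes called higher. CD3E of the T-cell receptor complex rose by 2.32, and 1 member was called at that step. From weaning to 4 d 2 of 9 rose, against 6.19% of all genes called higher: CD2 by 1.63 and the macrophage receptor CD163 by 2.11. The goblet-cell factor SPDEF rose by 1.20 and the smooth-muscle gene DES fell by 1.04 at the same step. The neutrophil genes S100A8, S100A9 and S100A12 did not pass the filter and plasmacytoid dendritic cell markers had no probe. The part of cell composition in the members' course was not tested.

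Single arrays stood high for the whole set of genes. To place each array, the difference from the day 1 mean was averaged over the 8 genes. Day 1 arrays lay between -0.55 and 0.93. At day 7, control piglet 19 stood at 2.71 and amoxicillin piglet 20 at 2.21, while the other 8 day 7 arrays lay between -0.43 and 0.81. Both high day 7 piglets were thus in the range of the 4 wk arrays (1.39 to 3.77).

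**Figure D3:**
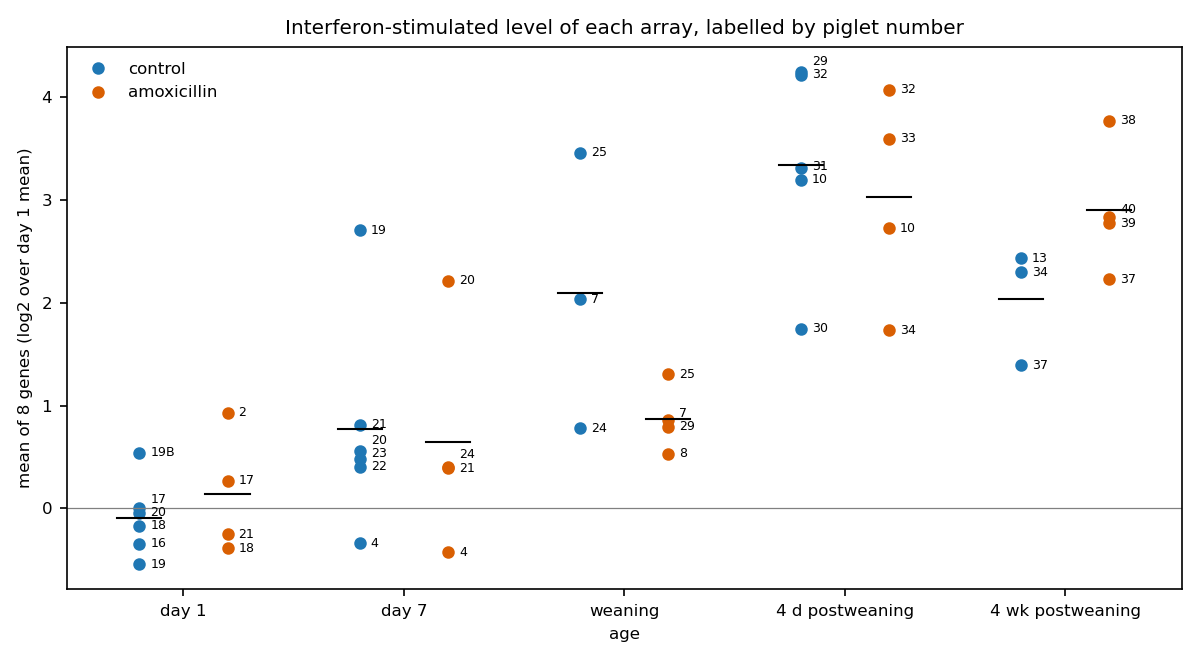
Mean over the 8 genes of the log2 difference from the day 1 mean for each array, by age and arm, labelled by piglet number, with a bar at each group mean. Control day 7 piglet 19 (2.71) and amoxicillin day 7 piglet 20 (2.21) lie above all other day 7 arrays.

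Piglet 19 had the highest value of its group for 8 of 8 members and lay above every day 1 array for 8 of 8. Its OASL was 12.70 against at most 8.71 on the other 5 control day 7 arrays, its RSAD2 11.89 against at most 9.21, and its IRF7 14.20 against at most 12.82. Its excess over the mean of the other 5 was 4.55 for OASL, 3.13 for RSAD2, 2.54 for MX2, 2.54 for MX1, 1.78 for IRF7, 1.53 for OAS2, 1.38 for EIF2AK2 and 1.14 for ISG15, the last saturated. Piglet 20 of the amoxicillin arm was highest of its 4 for 8 of 8 members and above every day 1 array for 7 of 8. Its excess was 3.83 for OASL, 2.48 for RSAD2, 2.33 for MX1, 2.22 for MX2, 1.94 for IRF7, 1.77 for OAS2, 1.53 for ISG15 and 0.64 for EIF2AK2. ISG15 was saturated on this array too, so its excess has no rank in either piglet. In both, the ISG15 excess is a difference of truncated values, and control day 7 piglet 21 was saturated as well. OASL and RSAD2 had the largest excess in both.

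At weaning the control piglets were spread, piglet 25 at 3.46 (highest of its group for 8 of 8 members), piglet 7 at 2.03 and piglet 24 at 0.78, whereas the 4 piglets from amoxicillin-treated sows lay between 0.53 and 1.30. At 4 d postweaning the 9 arrays lay between 1.73 and 4.25: the control arrays read 1.75, 3.20, 3.31, 4.22 and 4.25, and the amoxicillin arrays 1.73, 2.73, 3.60 and 4.07. Even the lowest array of each arm, control piglet 30 and amoxicillin piglet 34, lay above every day 1 array. At 4 wk the control arrays read 1.39, 2.30 and 2.43 and the amoxicillin arrays 2.23, 2.78, 2.84 and 3.77.

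**Figure D4:**
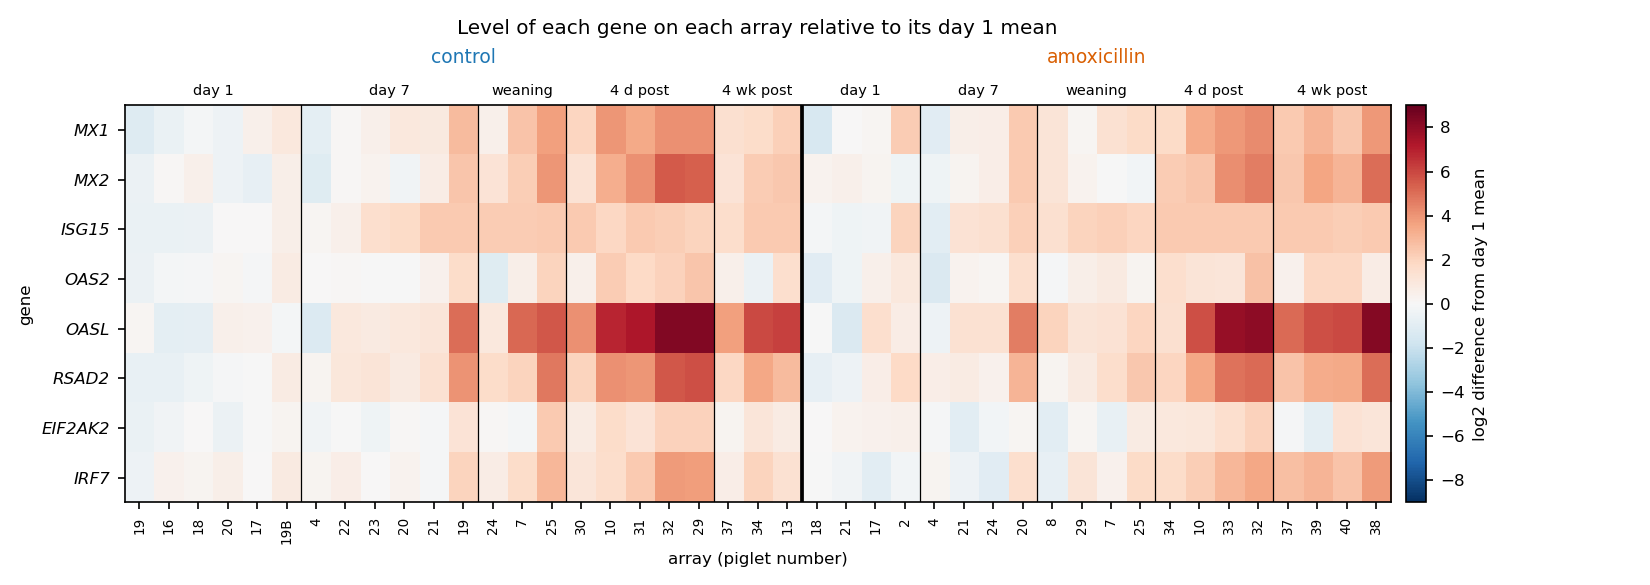
Log2 difference of each gene (rows) from its day 1 mean on each of the 43 arrays (columns, labelled by piglet number and ordered by level within arm and age), with red above and blue below. The column of control day 7 piglet 19 is red in all 8 rows, and OASL reaches the deepest red at 4 d postweaning.

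Array quality and marker genes were read for the 3 arrays farthest above their groups. Gene spots well above background numbered 25791 for control day 7 piglet 19, 25619 for amoxicillin day 7 piglet 20 and 25560 for control weaning piglet 25, the first and last being the lowest of their groups (28070 to 28644 on the other control day 7 arrays, 27002 and 27339 on the other control weaning arrays). Saturated gene spots were also fewest of their groups on both, 357 against 518 to 726 and 433 against 610 and 628, while amoxicillin piglet 20 had 685 against 352 to 526. The leukocyte marker mean deviated from its group by -0.56, 0.35 and -0.76 on these 3 arrays and the neutrophil mean by -0.56, -0.50 and -0.70. The part of these differences in the members' levels was not tested. The same 3 arrays stood highest above their groups with offset 50, with either scaling to a common 75th percentile and without ISG15. Keeping flagged spots or taking the deposited table could not change this ranking, because both leave the members' values as they were. Without them, 7 of 8 members were called at the step from weaning to 4 d, and ISG15 was not called from day 1 to day 7 (adjusted p = 0.12). The arrays were picked for their high member values, so their removal shifts these steps in a direction set beforehand. Of the 3, only control weaning piglet 25 enters the step from weaning to 4 d, and its removal lowers the weaning mean.

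Within groups the members moved together from piglet to piglet. Over the 43 arrays, deviations from the group means were correlated for each of the 28 pairs of members, with permutation within groups (100000 draws, two-sided) and adjustment over the 28. For 25 pairs the adjusted p was under 0.05 by both Pearson's r and Spearman's rho. The 21 pairs without ISG15 had r from 0.46 to 0.85 (median 0.68) and rho from 0.35 to 0.81, all 21 passing, and without the 2 arrays farthest from the median the lowest r was 0.36. Of the 7 pairs with ISG15, 4 passed (r from 0.18 to 0.64), its spot being saturated on 22 arrays. MX1 and RSAD2 were closest (r = 0.85), and RSAD2 followed the mean of the other 7 genes most closely (r = 0.93), ISG15 least (0.45).

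The treatment question was whether the piglets of amoxicillin-treated sows differed in these genes from control piglets at each age. Here a call needed, beside an adjusted p under 0.05, a log2 difference beyond 1.5. By limma 0 of 8 members were called at day 1, against 0.211% of all genes, 0 at day 7 (0%), 0 at weaning (3.41%), 0 at 4 d postweaning (1.54%) and 0 at 4 wk (2.13%). The counts of members at an unadjusted p under 0.05 were 0, 0, 1, 0 and 1. These counts do not show equality: the SE of a member's treatment difference reached 1.28 at weaning.

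At weaning, 8 of 8 members had a lower mean in the amoxicillin arm (median -1.12 against -0.07 over all genes). MX2 read 8.04, 8.25, 8.60 and 9.43 against 9.52, 10.54 and 12.31 in control piglets, without overlap. The difference was -2.21 (SE 0.79, adjusted p = 0.077), between -2.84 and -1.45 when 1 array was left out, and it was called (-2.49, adjusted p = 0.048) without amoxicillin weaning piglet 8. That array stood apart in its markers, with an enterocyte mean of 13.72 against 15.81 to 15.90 on the other 3 of its group, a leukocyte mean 0.59 above and a smooth-muscle mean with a deviation of -1.14 from the group, and the part of tissue make-up in the comparison was not tested. OASL differed by -2.28 (SE 1.28, adjusted p = 0.30), RSAD2 by -1.53, MX1 and IRF7 by -1.12 and EIF2AK2 by -0.92. For 2 of 8 members (MX2 and ISG15) the groups did not overlap, against 12.7% of all genes. ISG15 was saturated on every control weaning array, so its separation rests on truncated values.

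At 4 wk postweaning the values lay the other way, with 7 of 8 members higher in the amoxicillin arm (median 0.93 against -0.17 over all genes). These members are not independent observations either. IRF7 read 14.75, 14.92, 15.28 and 16.00 against 12.83, 13.55 and 14.22 in control piglets, without overlap, and differed by 1.70 (SE 0.63, adjusted p = 0.12). MX2 read 10.72, 11.34, 11.83 and 13.35 against 9.54, 10.61 and 10.71 and differed by 1.52 (SE 0.79, adjusted p = 0.32). Groups did not overlap for 3 of 8 members (MX1, MX2 and IRF7), against 13.8% of all genes.

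**Figure D5:**
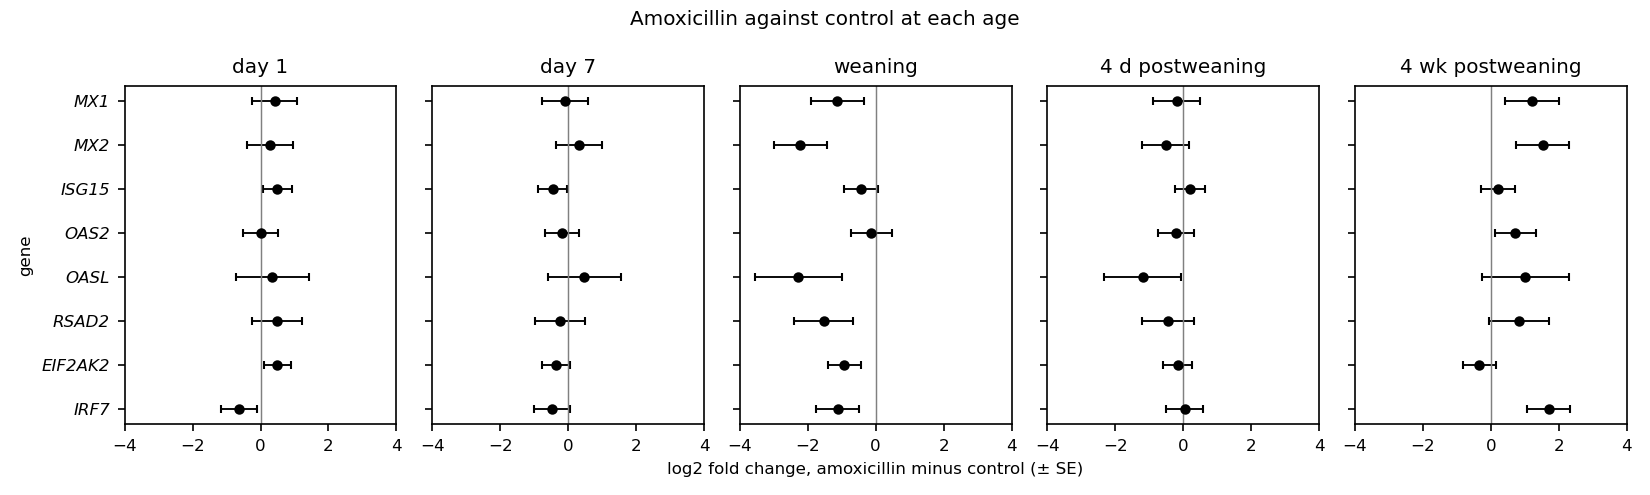
Log2 fold change (± SE) of amoxicillin against control for the 8 genes at each of the 5 ages, from the fit over all 43 arrays. All 8 points lie below 0 at weaning and 7 of 8 above 0 at 4 wk postweaning, and none passed the adjusted threshold. Points of the same age are not independent, because the genes moved together within groups.

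At the remaining ages the differences were small: the median was 0.38 at day 1, -0.21 at day 7 and -0.21 at 4 d, and the lowest adjusted p was 0.76, 0.92 and 0.78. Whether the treatment contrast varied between ages was tested with an F-test of the interaction, which called 0 of 8 members, against 6.18% of all genes, with 2 at an unadjusted p under 0.05 (lowest adjusted p 0.18, IRF7). Of the 40 other pathway genes, 0 were called at day 1, day 7 and weaning, 1 at 4 d (against 1.54% of all genes) and 1 at 4 wk (against 2.13%). The latter, TNFSF10, which encodes the death ligand TRAIL, was lower in the amoxicillin arm at 4 wk (-2.22, adjusted p = 0.010). IRF9 did not reach the fold threshold but passed on adjusted p, at -0.85 at weaning (0.040) and 1.25 at 4 wk (0.0048), and the interaction called 2 of the 40, against the same 6.18% of all genes: IRF9 (adjusted p = 0.0040) and TMEM173, which encodes the sensor adaptor STING (0.023).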

How the data were processed

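Scanner files of 43 arrays held spot intensity as the authors deposited it (Agilent Feature Extraction 10.7.3.1; the submitters' processing notes name R 3.0.2 and limma). Median foreground and background intensity were normexp-corrected over all spots (offset 1), quantile-normalized between arrays and taken to log2, which matched the deposited table of log2 values within 5.0e-09. Flagged and control spots were removed and probes averaged per accession. Genes above 1.1 times the highest dark spot (log2 7.68) on every array of at least 1 group were kept: 12771, of which 296 lacked a value on some array. One limma 3.58.1 fit (R 4.3.3) of 10 groups gave all contrasts, with Benjamini-Hochberg adjustment over all genes; an age step averages both arms and was called at an adjusted p under 0.05. Symbols came from RefSeq accessions. Genes to name were the members, called genes of the pathway and marker lists, and the 10 genes most like the members.

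The members and lists were chosen with earlier results of these data known. Alternatives were offset 50, processed signal and normexp signal at a common 75th percentile, flagged spots kept, the deposited table, no filter, spots well above background, slide or piglet number as a random block and each array left out. Slide as a fixed block, the 2 longer age contrasts, the never-saturated probes and the fit without the 3 highest arrays were added after seeing the data. The script was tested on simulated data. Piglet numbers are shared between arms, but the labels do not say what same-numbered piglets have in common. Precision is limited by 3 to 6 arrays per group. Some genes of the lists are counted but not reported here by name.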

Additional observations from a re-analysis of the deposited data

Results flagged for a closer look

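In 64 groups of 4 to 6 arrays of 1 gene, 9 held an array far from the rest by Dixon's criterion. Chance gives about 1 in 20 for independent groups. The 64 share arrays and their genes move together, so the 9 cannot be set against that rate. Of the 9, 5 belonged to control day 7 piglet 19: OAS2 (11.76, next 10.54), OASL (12.70, next 8.71), RSAD2 (11.89, next 9.21), EIF2AK2 (11.95, next 10.82) and IRF7 (14.20, next 12.82). At the same age RSAD2 of amoxicillin piglet 20 stood at 10.91, with the next piglet at 8.61. ISG15 of amoxicillin day 1 piglet 2 was 15.61 on a saturated spot, with the next at 13.49. On that array the neutrophil mean lay 2.19 and the blood marker HBE1 2.24 above the group, and their part in the value was not tested. The low ISG15 values of amoxicillin 4 d piglet 34 (15.95, next 16.00) and 4 wk piglet 40 (15.81, next 15.98) came from saturated spots.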

How the results depend on the processing

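Direction was checked for members called at a step between neighbouring ages and for treatment differences with an unadjusted p under 0.05. None of these changed direction under any alternative run. The other differences were not checked for direction. Over normalizations, filters and the random blocks, no member was called for treatment at any age, and 2 counts moved by more than 1.5 times: from day 1 to day 7, 0 with slide as a random block, and from day 7 to weaning, 1 (IRF7) with the processed signal. Smaller shifts are outside these 2, among them the loss of OAS2 and IRF7 from weaning to 4 d. Slide as a fixed block left 0 members called between ages in control piglets and 4 in the amoxicillin arm, 0 from day 1 to day 7, 1 from weaning to 4 d and 3 from day 1 to 4 wk, with 58, 1269, 115, 579 and 658 of all genes called in these contrasts. Without the 3 highest arrays, which were picked on the members' values, counts were 0 from day 1 to day 7 and 1 (ISG15) from day 7 to weaning. With 1 array left out at a time, counts ran from 0 to 1 for treatment at weaning, for day 1 to day 7, for day 7 to weaning (ISG15, without control day 7 piglet 19 or 21 or amoxicillin day 7 piglet 20 or 24) and for 4 d to 4 wk (EIF2AK2, without control 4 d piglet 30 or amoxicillin 4 wk piglet 40), from 2 to 7 for weaning to 4 d and from 0 to 3 for weaning to 4 wk (0 without control weaning piglet 24, 3 without control weaning piglet 25, 2 without amoxicillin weaning piglet 25 or 4 wk piglet 37).

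Same-numbered piglets deviated together in 4 of 10 pairs (r above 0.1, range -0.27 to 0.44). So few values cannot decide whether the numbers pair the animals. With piglet number as a replicate block (correlation 0.0678) the count was 7 from weaning to 4 d, 1 from day 1 to day 7 and 0 for treatment at each age, and the block changed no other call. Saturation limits ISG15 at all ages. Its differences into or from a group with saturated arrays are differences of truncated values and are not bounds.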
